A study of Mus musculus with 12 samples.

Results

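CC chemokines are small secreted proteins that steer leukocytes by binding G protein-coupled receptors on their surface. Dendritic cells (DC) make some of them to draw in monocytes and others to draw T cells, and during airway inflammation they are made by resident and by newly recruited lung cells alike. The 10 genes described here include Ccl2, Ccl7, Ccl12 and Ccl8, which encode proteins named monocyte chemoattractant proteins, and Ccl24, which encodes an eotaxin. Ccl3, Ccl4 and Ccl5 encode inflammatory attractants of monocytes and T cells. Ccl17 and Ccl22 encode ligands of CCR4, a chemokine receptor of T cells. The 10 genes were chosen as probe sets annotated with 1 of these symbols and no other. Each of the 10 had exactly 1 such probe set among the 18194 genes with a symbol of their own on the array, so no other probe set could serve as a check. All 10 were among the 10929 genes whose signal passed a filter on dim probe sets, which asked for a signal above the median of the array on at least 3 of 12 arrays.

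The arrays held RNA from DC sorted from lungs of C57BL/6 male mice aged 8 to 12 weeks. Every mouse had received 100 ng of lipopolysaccharide, an inflammatory component of bacterial walls, and 100 ug of the foreign protein ovalbumin by the airway in 50 ul of PBS, and lungs were taken 16 h later. Untreated mice were not analysed here, so all values describe inflamed lungs. There were 4 populations with 3 arrays each. Both conventional ones (cDC) were sorted as CD103+ cells and as CD11bhi cells low in CD14, here CD103+ cDC and CD14lo cDC. Both monocyte-derived ones (moDC) were CD11bhi and either high in CD14 or high in Ly6C, here CD14hi moDC and Ly6Chi moDC, the latter labelled as inflammatory. Cells of 20 mice were used for each replicate, so an array shows an average over animals, and the stated sort purity of over 93% leaves room for other cells.

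Signals are MAS5 intensities in arbitrary units. A log2 difference is taken on the signal plus a pseudocount of 50.0003, is given with its standard error (SE) from a limma model with 3 arrays per population, and understates the change of dim genes. A gene was called where its two-sided p, adjusted by Benjamini-Hochberg over the 10929 genes tested, was under 0.05. The small number of arrays limits the precision of every value. A lower signal in a sorted population can mean fewer cells with the transcript or less of it per cell, and these cannot be told apart. Signals of different probe sets are not on one scale, so levels are compared between populations and not between genes.

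The sort markers followed the labels where they could be read. Itgae, which encodes CD103, had a mean signal of 15178 in CD103+ cDC, 855 in CD14lo cells and at most 140.1 in either moDC population. Cd14 had means of 11669 in CD14hi moDC and 10836 in Ly6Chi moDC, against 968 in CD103+ cells and 1537 in CD14lo cDC. Itgam, which encodes CD11b, had 50.7 in CD103+ cDC and between 1115 and 2188 in the others. Ly6c1 and Ly6c2 had no probe set of their own, so the Ly6C label could not be checked. The ratio of 3′ to 5′ signal of the Gapdh controls, which reflects RNA integrity, averaged 2.74 ± 0.91 in CD103+ cDC and between 1.66 and 1.85 in the other populations (SD, n = 3). It was 3.26 and 3.27 on CD103+ cDC replicates 1 and 3 and at most 2.29 on the other 10 arrays. The brightest signal of an array was between 33181 and 41992 in CD103+ cDC and between 22821 and 26974 in CD14lo cDC, although all arrays had been scaled to one trimmed mean.

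Ccl2, Ccl7 and Ccl12 were high in both monocyte-derived populations and low in both conventional ones. By their means, Ccl3, Ccl4 and Ccl8 were highest in CD14hi moDC, and Ccl24 in Ly6Chi moDC. Ccl5, Ccl17 and Ccl22 were high in 3 populations and low in Ly6Chi moDC. Across the 4 populations all 10 differed by the F-test of the model, as did 51.1% of the genes tested. Ccl2, Ccl3, Ccl12 and Ccl24 were called lower in CD103+ cDC than in each of the 3 other populations, as were 9.95% of genes tested. The F statistic of Ccl12 was the largest of all 10929 genes (479, adjusted p = 1.6e-13), and ranked between 1 and 7 under the other settings.

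**Figure D1:**
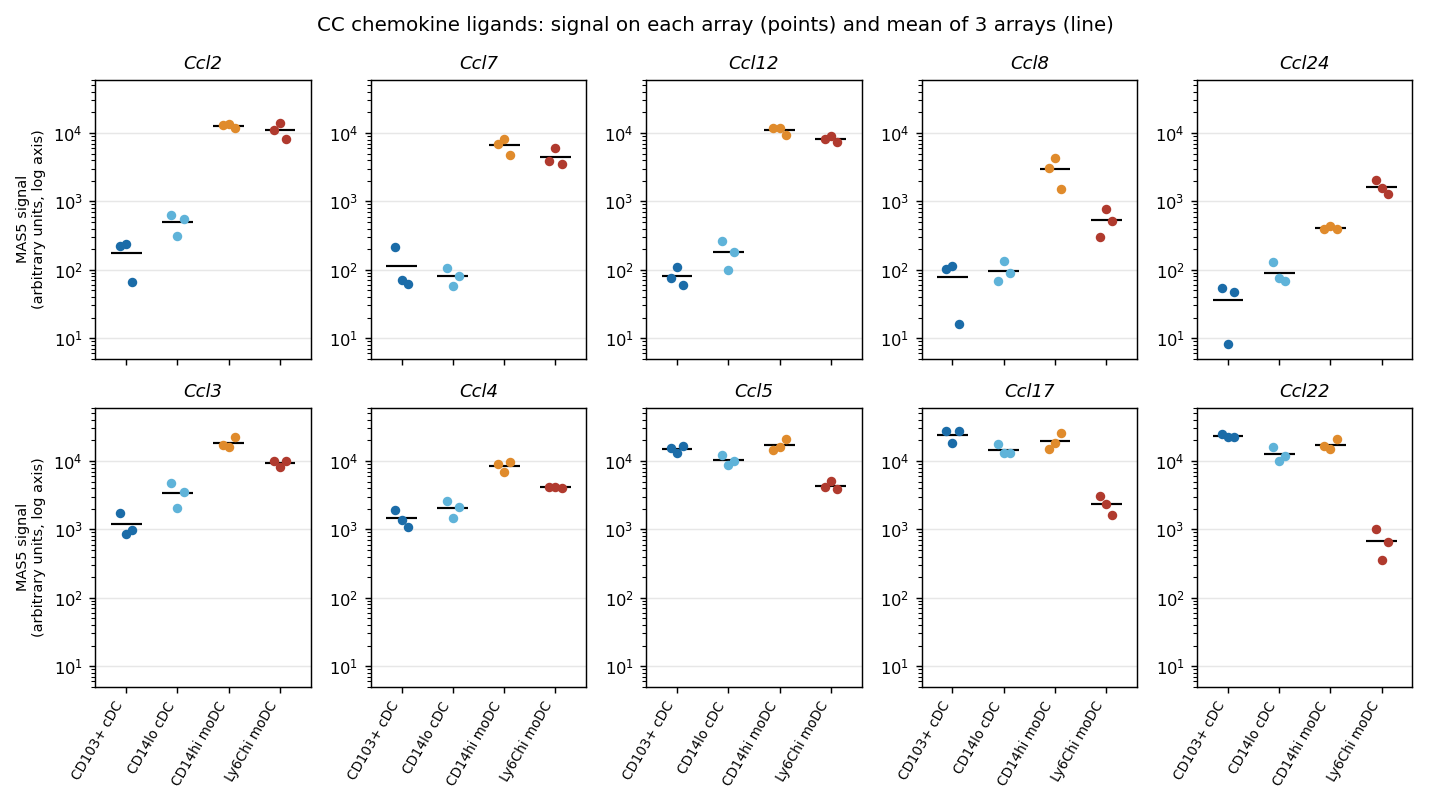
MAS5 signal (arbitrary units, log axis) of the 10 ligand genes on each of 12 arrays, with points for arrays and a line for the mean of 3 arrays in each population. Ccl2, Ccl7 and Ccl12 separate both monocyte-derived from both conventional populations, and Ccl17 and Ccl22 are low in Ly6Chi moDC alone.

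Ccl2, Ccl7, Ccl12 and Ccl8 lie in one cluster on mouse chromosome 11, where RefSeq places Ccl7 next to Ccl2 and Ccl8 next to Ccl12. Their products are monocyte chemoattractant proteins, and the first 3 act on monocytes chiefly through CCR2. RefSeq promoter sequences (GRCm38.p6) matched 5 of the 10 genes, namely Ccl12, Ccl8, Ccl3, Ccl17 and Ccl22. The 150 bases before the start sites of Ccl12 and Ccl8 are shown because both of these neighbours were higher in CD14hi moDC than in conventional DC, by unequal folds, and Ccl8 but not Ccl12 was called lower in Ly6Chi than in CD14hi moDC. They span chr11:82101695-82101844 for Ccl12 and chr11:82115035-82115184 for Ccl8, both on the plus strand, and capitals mark 3 runs of 8 bases found in both.
Ccl12: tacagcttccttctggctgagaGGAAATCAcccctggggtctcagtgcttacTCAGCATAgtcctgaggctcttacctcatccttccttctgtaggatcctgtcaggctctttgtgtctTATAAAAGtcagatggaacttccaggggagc
Ccl8: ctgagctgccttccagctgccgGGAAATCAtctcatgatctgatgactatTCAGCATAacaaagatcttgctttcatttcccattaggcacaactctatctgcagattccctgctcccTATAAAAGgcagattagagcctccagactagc

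The TATA box run TATAAAAG began at position -31 in Ccl12 and -32 in Ccl8, counted from the start site. The run GGAAATCA began at -128 in both, and TCAGCATA at -98 and -100. Searched on both strands of all 32851 RefSeq promoters of 300 bases, these runs were present in 1.70%, 1.21% and 0.545%. Aligned over 150 bases, Ccl12 and Ccl8 were identical at 66.7%, the highest value among the 10 pairs of the 5 promoters, which ran from 56.7% to 66.7%. The runs were picked after the sequences had been seen, and a match is a description of the letters only. No match to the kappaB consensus or to the AP-1 motif TGANTCA was found in the 5 promoters of 300 bases, against 8.46% and 7.81% of all promoters. With only 5 promoters, a lack of matches cannot be told apart from shares this low. Ligands without a matched promoter were not searched.

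Ccl12, which encodes monocyte chemoattractant protein 5 of the mouse, had signals of 74.8, 109.6 and 59.1 on the CD103+ cDC arrays and 260.5, 99.0 and 179 on the CD14lo cDC arrays. In CD14hi moDC they were 11678, 11731 and 9228, and in Ly6Chi moDC 8102, 9159.8 and 7484. Every monocyte-derived array lay far above every conventional one, and the arrays of both monocyte-derived populations did not overlap each other. Ccl12 was 49.4-fold higher in CD14hi moDC than in CD14lo cDC (log2 difference 5.63 ± 0.22, adjusted p = 1.2e-11) and 63.8-fold higher in Ly6Chi moDC than in CD103+ cDC (6.00 ± 0.22, adjusted p = 2.6e-13). Between Ly6Chi and CD14hi moDC the log2 difference of -0.39 was not called (95% interval -0.85 to 0.06, adjusted p = 0.25).

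Ccl2, the main attractant of CCR2-bearing monocytes, had 226, 234 and 65.4 in CD103+ cDC and 627, 309 and 559 in CD14lo cDC. The CD14hi moDC arrays gave 13249, 13378 and 11786, and those of Ly6Chi moDC 11113, 14147 and 8046. The conventional populations did not overlap each other, whereas the monocyte-derived ones did. The gene was 24.3-fold higher in CD14hi moDC than in CD14lo cDC (log2 difference 4.60 ± 0.29, adjusted p = 4.0e-09) and 20.5-fold higher in Ly6Chi moDC than in CD14lo cDC (4.36 ± 0.29, adjusted p = 2.6e-09). It was also 2.54-fold higher in CD14lo than in CD103+ cDC (1.34 ± 0.29, adjusted p = 0.0018). No difference was called between Ly6Chi and CD14hi moDC (log2 difference -0.24, 95% interval -0.86 to 0.38).

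Ccl7, the gene next to Ccl2 and the gene of another monocyte attractant, had 213, 69.7 and 62.7 in CD103+ cDC and 106, 57.9 and 80.2 in CD14lo cDC. Its signals rose to 6821, 8247 and 4751 in CD14hi moDC and to 3932, 6043 and 3496 in Ly6Chi moDC. The conventional arrays were all low and overlapped, with 2 of 3 arrays in each population below the median of their array. Ccl7 was 49.9-fold higher in CD14hi moDC than in CD14lo cDC (log2 difference 5.64 ± 0.29, adjusted p = 3.4e-10) and 34.0-fold higher in Ly6Chi moDC than in CD14lo cDC (5.09 ± 0.29, adjusted p = 3.2e-10). The difference between Ly6Chi and CD14hi moDC was -0.56 (95% interval -1.16 to 0.05, adjusted p = 0.21), and that between CD14lo and CD103+ cDC was -0.23 (95% interval -0.84 to 0.38).

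Ccl8, which encodes monocyte chemoattractant protein 2, shared the low level in conventional DC but not the high one in Ly6Chi moDC. Its signals were 103, 115 and 16 in CD103+ cDC and 67.6, 135 and 88.4 in CD14lo cDC. Among monocyte-derived cells, CD14hi moDC had 3043, 4256 and 1529 and Ly6Chi moDC 302, 782 and 509. The lowest CD14hi moDC array lay above the highest Ly6Chi moDC array, and all Ly6Chi moDC arrays lay above all conventional ones. Ccl8 was 19.1-fold higher in CD14hi moDC than in CD14lo cDC (log2 difference 4.26 ± 0.38, adjusted p = 2.3e-07) and 5.04-fold lower in Ly6Chi moDC than in CD14hi moDC (-2.33 ± 0.38, adjusted p = 2.0e-04). In Ly6Chi moDC it was still 3.79-fold higher than in CD14lo cDC (1.92 ± 0.38, adjusted p = 7.7e-04). Its spread between replicates was the widest of the 10 genes by SE.

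Markers of interstitial macrophages, cells that lie close to these DC in the lung and bear some of the same surface proteins, differed between the same populations. Of 12 such genes, all tested, 10 were higher in CD14hi moDC than in CD14lo cDC and none lower, where 9.24% of all genes tested were higher. In Ly6Chi moDC against CD14lo cDC 9 were higher, against 11.2% of all genes, and 2 lower, namely Cd163 (means of 59.2 against 467) and Mgl2 (423 against 3085). Their summed signal lay between 71346 and 83985 in CD14hi moDC and between 45400 and 52524 in Ly6Chi moDC. In CD14lo cDC it lay between 15531 and 20753, and in CD103+ cDC between 1596 and 3453. C1qa, a complement gene of the list, had 13364 ± 802 in CD14hi moDC against 6622 ± 1301 in Ly6Chi moDC (SD, n = 3). Lyve1 and Folr2 were dim, at 131 ± 51.2 and 373 ± 122 in CD14hi moDC and at 22.8 ± 9.60 and 252 ± 26.5 in Ly6Chi moDC (SD, n = 3). Other genes of the list were bright. Pf4 had 8572 ± 1095 in CD14hi moDC and 2054 ± 415 in Ly6Chi moDC, against 147 ± 136 in CD14lo cDC. Mrc1 had 6197 ± 809, 4434 ± 366 and 2691 ± 285 in that order (SD, n = 3). Of 7 fibroblast genes, 5 were tested and 4 were higher in CD14hi moDC than in CD14lo cDC, against the same 9.24%, with summed signals between 4756 and 5591 against 1413 and 1826. The part of either cell type in the ligand signals was not tested.

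Ccl24 encodes eotaxin-2, a ligand of CCR3 on eosinophils, and ran opposite to Ccl8 within the monocyte-derived cells. It had 53.4, 8.20 and 46.6 in CD103+ cDC and 128, 75.2 and 67.5 in CD14lo cDC. Signals were 388, 436 and 394 in CD14hi moDC and 2038, 1542 and 1277 in Ly6Chi moDC. No population overlapped another, and all 6 pairs of populations were called, as for Ccl3 and for 1.36% of genes tested, although the call between the conventional populations was lost under several settings. The gene was 3.60-fold higher in Ly6Chi than in CD14hi moDC (log2 difference 1.85 ± 0.24, adjusted p = 2.0e-05) and 3.30-fold higher in CD14hi moDC than in CD14lo cDC (1.72 ± 0.24, adjusted p = 4.9e-05). Against CD103+ cDC, where it was below the array median on all 3 arrays, the difference of Ly6Chi moDC was 19.6-fold, and it was 39.7-fold with a pseudocount of 10 and 12.6-fold with one of 100.

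Ccl24 was alone among the 10 in exceeding all 3 other populations in Ly6Chi moDC, a pattern that 3.39% of genes tested showed. Some neutrophil markers were also highest there. Of 10 listed, 8 were on the array under their own symbol and 4 were tested, all 4 of them (S100a8, S100a9, Csf3r and Mmp8) higher in Ly6Chi than in CD14hi moDC, as were 6.82% of all genes tested. The summed signals of the 8 lay between 4150 and 4417 against 1113 and 2236. Cxcr2 and the granule genes Ngp, Camp and Ltf did not pass the filter. For CD14hi cells, Ngp, Camp and Ltf had 16.9 ± 13.1, 77.5 ± 32.9 and 59.0 ± 38.6. For Ly6Chi cells they had 5.3 ± 5.0, 62.9 ± 4.4 and 46.5 ± 35.6 (SD, n = 3 each). Cxcr2 went the other way, from 27.8 ± 13.7 for CD14hi cells to 45.3 ± 20.8 for Ly6Chi cells. The arrays of both populations overlapped for each of these dim genes, so they give no order. The part of neutrophils in the Ccl24 signal was not tested. None of 8 eosinophil, basophil and mast cell genes passed the filter, and their summed signal was at most 238.7 on any array.

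Ccl3 and Ccl4 encode macrophage inflammatory proteins 1 alpha and 1 beta, neighbours on chromosome 11 that attract monocytes, T cells and NK cells, in the case of Ccl3 through CCR1 among others. Ccl3 had 1729, 859 and 965 in CD103+ cDC and 4724, 2035 and 3482 in CD14lo cDC. The CD14hi moDC arrays gave 17142, 16073 and 22429, and those of Ly6Chi moDC 9976, 8223 and 9882. The populations formed 4 steps without overlap, from CD103+ cDC through CD14lo cDC and Ly6Chi moDC to CD14hi moDC. Ccl3 was 2.78-fold higher in CD14lo than in CD103+ cDC (log2 difference 1.47 ± 0.26, adjusted p = 2.4e-04), 5.62-fold higher in CD14hi moDC than in CD14lo cDC (2.49 ± 0.26, adjusted p = 1.4e-06) and 1.96-fold lower in Ly6Chi than in CD14hi moDC (-0.97 ± 0.26, adjusted p = 0.011). The last call was lost without CD14hi moDC replicate 3 (log2 difference -0.83, adjusted p = 0.058) and when each array was centred at its median (-0.76, adjusted p = 0.061).

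For Ccl4 the signals were 1921, 1381 and 1094 in CD103+ cDC and 2576, 1444 and 2127 in CD14lo cDC. Among monocyte-derived cells, CD14hi moDC had 9117, 6983 and 9547 and Ly6Chi moDC 4221, 4114 and 4021. The conventional populations overlapped, and both monocyte-derived ones stood above them and apart from each other. Ccl4 was 4.17-fold higher in CD14hi moDC than in CD14lo cDC (log2 difference 2.06 ± 0.20, adjusted p = 8.4e-07) and 2.04-fold lower in Ly6Chi than in CD14hi moDC (-1.03 ± 0.20, adjusted p = 0.0012). The difference of 0.47 between CD14lo and CD103+ cDC was not called (adjusted p = 0.096), but was without CD103+ cDC replicate 1 (0.68, adjusted p = 0.021) or without CD14lo cDC replicate 2 (0.69, adjusted p = 0.014). Ccl3, Ccl4 and Ccl8 were called higher in CD14hi moDC than in each of the 3 other populations, as were 1.97% of genes tested.

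Ccl5, or RANTES, is a ligand of CCR1 and CCR3, among others, and attracts T cells. It had 15359, 13139 and 16482 in CD103+ cDC and 12363, 8692 and 9879 in CD14lo cDC. Signals were 14589, 15866 and 21143 in CD14hi moDC and 4139, 5013 and 3908 in Ly6Chi moDC. The Ly6Chi moDC arrays lay below all others, while CD103+ cDC and CD14hi moDC overlapped. The gene was 3.89-fold lower in Ly6Chi than in CD14hi moDC (log2 difference -1.96 ± 0.16, adjusted p = 4.6e-08) and 1.66-fold higher in CD14hi moDC than in CD14lo cDC (0.73 ± 0.16, adjusted p = 0.0029). Between CD14hi moDC and CD103+ cDC the difference was 0.19 (95% interval -0.15 to 0.52). T and NK cells also make this chemokine. Cd3e, Cd3d and Cd3g were at no more than 111 on any array and did not pass the filter, and neither did the NK genes Ncr1 and Nkg7, at no more than 46.5. Of 7 T cell genes on the array 3 were tested, and some DC also bear the products of these. Cd4 had means of 43.0 in CD103+ cells, 156 in CD14lo cells, 662 in CD14hi cells and 6.74 in Ly6Chi cells, and Cd2 had 115, 212, 600 and 152. Both were called higher in CD14hi moDC than in CD14lo cDC, where 9.24% of all genes tested were higher. Cd8a was highest in CD103+ cells, with 633, 272, 150 and 49.2 in the same order, and was not called in that comparison. Cd4, Cd2 and Cd8a were all called lower in Ly6Chi than in CD14hi moDC, as were 11.4% of all genes tested. The summed signal of the 7 lay between 930 and 1062 for CD103+ cells, 621 and 1077 for CD14lo cells, 1517 and 1611 for CD14hi cells and 302 and 415 for Ly6Chi cells. Of 8 NK cell genes 4 were tested, and Klrd1, the brightest of them in CD14lo cDC, had means of 2586 in CD103+ cells, 6418 in CD14lo cells, 1036 in CD14hi cells and 481 in Ly6Chi cells, lower in the last than in CD14hi moDC by call. Klrk1 had 1175 in CD14hi moDC and 1093 in Ly6Chi moDC and was not called there. The summed signal of the 8 lay between 10478 and 13151 in CD14lo cDC and between 2566 and 7489 elsewhere. The part of T and NK cells in the Ccl5 signal was not tested.

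Ccl17 and Ccl22 flank Cx3cl1 on mouse chromosome 8, and their products bring CCR4-bearing T cells to DC. Their RefSeq promoters (GRCm38.p6) are shown because both genes were called lower in Ly6Chi moDC than in each other population, though by unequal folds. The 150 bases before the start sites span chr8:94810303-94810452 for Ccl17 and chr8:94745534-94745683 for Ccl22, both on the plus strand, and capitals mark the longest run found in both.
Ccl17: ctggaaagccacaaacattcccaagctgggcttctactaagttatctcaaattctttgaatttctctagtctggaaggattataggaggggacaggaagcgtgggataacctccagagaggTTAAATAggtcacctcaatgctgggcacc
Ccl22: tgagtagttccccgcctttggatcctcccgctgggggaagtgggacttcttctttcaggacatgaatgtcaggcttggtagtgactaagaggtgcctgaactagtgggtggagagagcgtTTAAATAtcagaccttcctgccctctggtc

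The run TTAAATA began at -29 in Ccl17 and at -30 in Ccl22 and was present, on either strand, in 4.51% of all promoters. Over 150 bases the promoters were identical at 62.7%.

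Ccl17 had 27242, 17997 and 27294 in CD103+ cDC and 17703, 13125 and 13112 in CD14lo cDC. The CD14hi moDC arrays gave 14986, 18055 and 25745, and those of Ly6Chi moDC 3028, 2367 and 1599.8. The Ly6Chi moDC arrays were far below the rest, and the CD14hi moDC arrays spread across the range of both conventional populations. Ccl17 was 8.30-fold lower in Ly6Chi than in CD14hi moDC (log2 difference -3.05 ± 0.22, adjusted p = 1.3e-08) and 10.3-fold lower than in CD103+ cDC (-3.37 ± 0.22, adjusted p = 4.9e-10). CD14hi moDC differed from CD14lo cDC by 0.40 (95% interval -0.07 to 0.87) and from CD103+ cDC by -0.31 (95% interval -0.78 to 0.16), neither of them called.

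Ccl22 had 24918, 22443 and 22362 in CD103+ cDC and 15991, 10059 and 11790.3 in CD14lo cDC. Among monocyte-derived cells, CD14hi moDC had 16318, 14948 and 20640.2 and Ly6Chi moDC 1005, 359 and 645. Here CD103+ cDC lay above all other arrays and Ly6Chi moDC below all others. Ccl22 was 25.7-fold lower in Ly6Chi than in CD14hi moDC (log2 difference -4.68 ± 0.24, adjusted p = 2.2e-10), and 18.6-fold lower than in CD14lo cDC (-4.21 ± 0.24, adjusted p = 3.8e-10). The differences of CD14hi moDC from CD14lo cDC, 0.47 (95% interval -0.04 to 0.98), and from CD103+ cDC, -0.44 (95% interval -0.95 to 0.07), were not called.

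The levels of Ccl5, Ccl17 and Ccl22 did not follow the division into conventional and monocyte-derived cells. Against the mean of both, the mean of both conventional populations was 2.80-fold higher in Ccl17, 5.01-fold in Ccl22 and 1.44-fold in Ccl5, all called, but the arrays of the sides overlapped for each of these genes. The same held for Ccr7, the receptor that leads mature DC to lymph nodes, with means of 14474 in CD14lo cDC and 14561 in CD14hi moDC against 936 in Ly6Chi moDC. Of 13 genes of DC maturation, 12 were tested, none was called between CD14hi moDC and CD14lo cDC, where 16.2% of all genes tested were, and 10 were lower in Ly6Chi than in CD14hi moDC, as were 11.4% of all genes. All 12 were higher in conventional than in monocyte-derived cells, against 20.8% of all genes, and 11 were lower in CD14hi moDC than in CD103+ cDC, against 16.9%. Ccl5, Ccl17 and Ccl22 were lower in Ly6Chi moDC than in each other population, a pattern of 6.52% of genes tested. Flt3 and Zbtb46, both called higher in conventional than in monocyte-derived cells, were also called lower in Ly6Chi than in CD14hi moDC. Flt3 means were 2513 (CD14lo), 753 (CD14hi) and 113 (Ly6Chi), and those of Zbtb46 were 3001, 1424 and 189. Of 15 DC population genes tested, 6 were lower in this comparison, 2 higher and 7, Itgae and Xcr1 among them, not called. The part of conventional DC in the signals of these ligands was not tested.

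**Figure D2:**
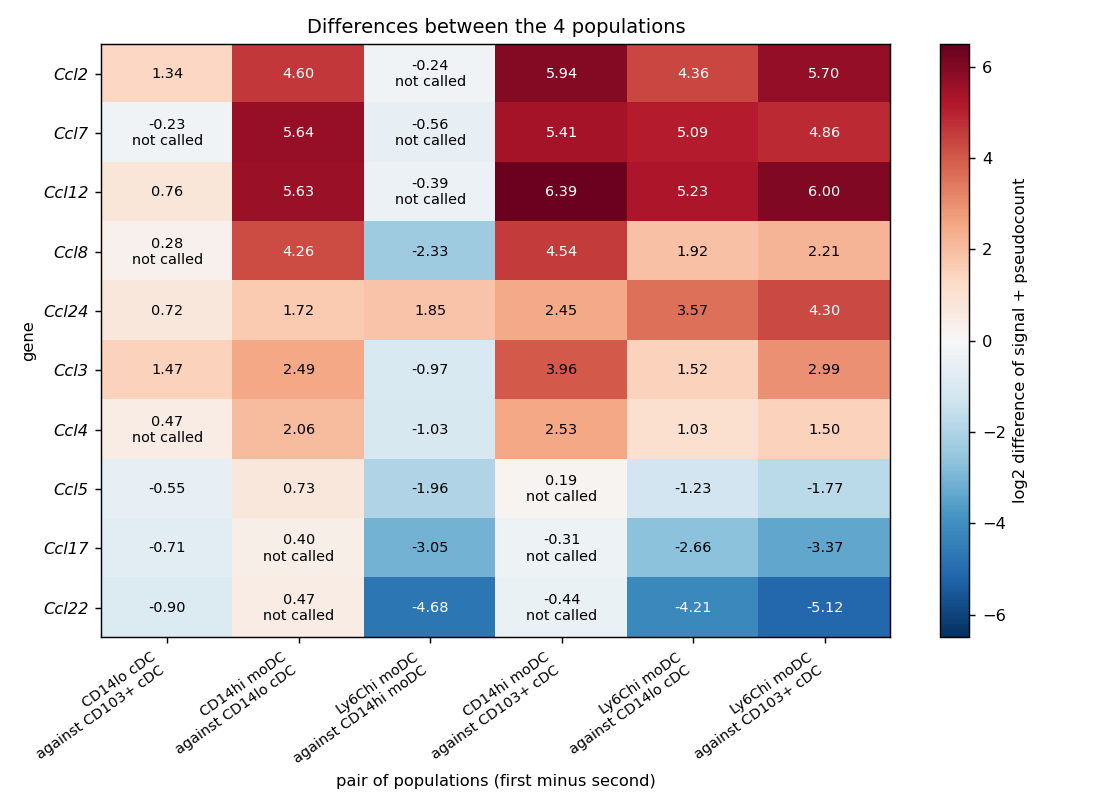
Log2 difference of signal plus pseudocount for the 10 ligands (rows) in the 6 pairs of populations (columns, first minus second), coloured red where higher and blue where lower in the first population. Cells without a call are marked, and 1 row, Ccl24, is positive in every column.

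Counted by comparison, 8 of 10 ligands were higher in CD14hi moDC than in CD14lo cDC and none lower, where 16.2% of genes tested were called, 9.24% as higher and 6.95% as lower. The median log2 difference was 2.27, against -0.01 for all genes, and the 2 not called were Ccl17 and Ccl22. In Ly6Chi against CD14hi moDC, where 18.2% of genes were called (6.82% higher, 11.4% lower), 6 ligands were lower and 1, Ccl24, higher, with a median of -1.0 against -0.01. Those not called were Ccl2, Ccl7 and Ccl12. In CD14hi moDC against CD103+ cDC, 7 were higher and none lower, with 37.2% of genes called (20.3% higher, 16.9% lower). In Ly6Chi moDC all 10 were called against CD103+ cDC, where 47.5% of genes were (24.3% higher, 23.2% lower), and against CD14lo cDC, where 25.2% were (11.2% higher, 14% lower), each time with 7 higher and 3 lower. Between both conventional and both monocyte-derived populations 3 were higher and 7 lower in the former, with 41.5% of genes called (20.8% higher, 20.7% lower), and Ccl12, Ccl7 and Ccl2 ranked 1, 2 and 3 among the falls of all genes tested. With a pseudocount of 10 the ranks were 1, 2 and 4, and with one of 100 they were 1, 3 and 2. These comparisons share arrays and are not independent of each other.

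**Figure D3:**
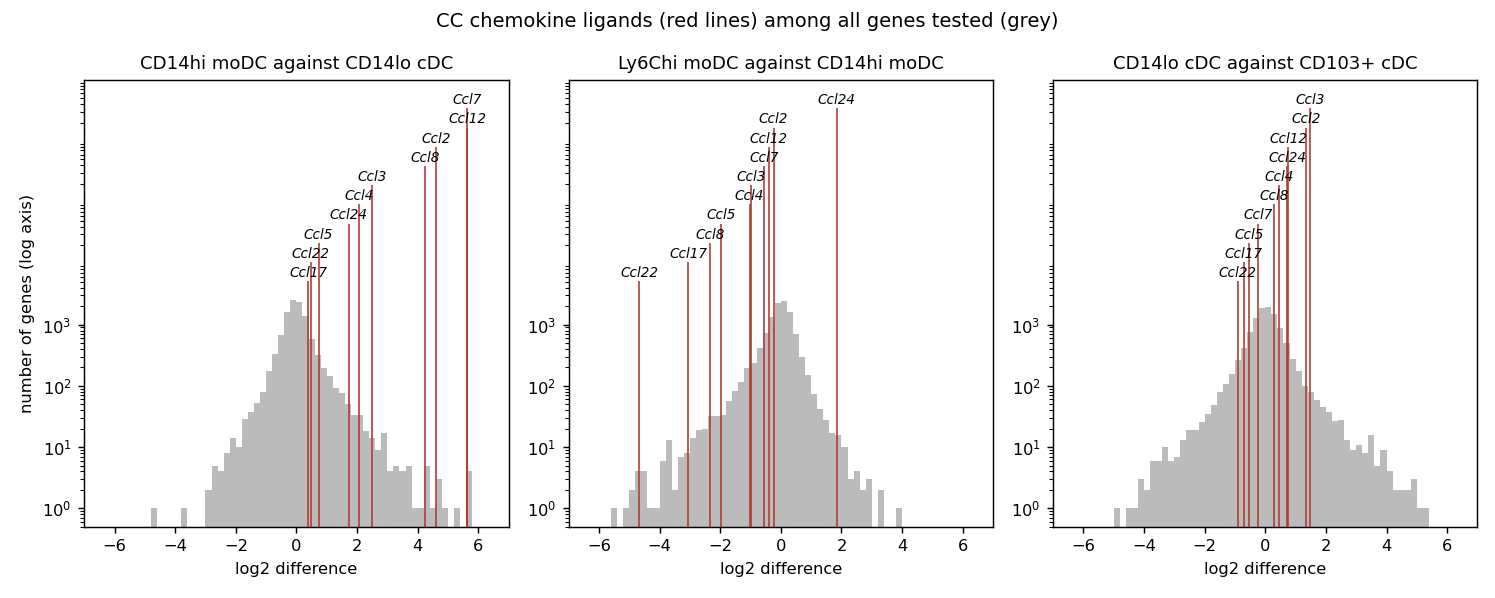
Histograms of the log2 difference of all 10929 genes tested (grey, number of genes on a log axis) in 3 comparisons, with a red line at the value of each ligand, whose height has no meaning. Ccl7 and Ccl12 stand near the upper end for CD14hi moDC against CD14lo cDC, and Ccl22 near the lower end for Ly6Chi against CD14hi moDC.

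Between the conventional populations the largest difference was 2.78-fold, of Ccl3. With a pseudocount of 10 it was 2.99-fold, of Ccl2. Of the 10 ligands, 4 were higher in CD14lo than in CD103+ cDC (Ccl2, Ccl3, Ccl12 and Ccl24) and 3 lower (Ccl5, Ccl17 and Ccl22), where 28.7% of genes tested were called (15.3% higher, 13.4% lower). The falls were 1.46-fold for Ccl5, 1.64-fold for Ccl17 and 1.87-fold for Ccl22, and none of the 3 was called as lower in CD14hi moDC against CD103+ cDC. With quantile normalization, which also evens out the brightest signals, 4 of 10 were called and those of Ccl5, Ccl17 and Ccl22 were lost (adjusted p = 0.083, 0.22 and 0.080). Without CD103+ cDC replicate 3, 4 were called as well, the losses being Ccl5, Ccl12 and Ccl17 (adjusted p = 0.062, 0.061 and 0.093). With CD103+ cDC replicate 2 as the lone array of its population, the one with the lowest Gapdh ratio there, only Ccl3 and Ccl24 were called, and 1733 genes in place of 3141.

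Single arrays also decided smaller calls between the conventional populations. The call of Ccl24 (1.65-fold higher in CD14lo cDC, adjusted p = 0.032) went when CD103+ cDC replicate 2 was left out (adjusted p = 0.16), and also without CD14lo cDC replicate 1 (adjusted p = 0.15). It was lost as well with a pseudocount of 100 (adjusted p = 0.069), with no filter (0.069) and with only the arrays compared (0.082). That of Ccl12 (1.70-fold, adjusted p = 0.013) was lost without CD14lo cDC replicate 1 (adjusted p = 0.087) and with only the arrays compared (0.064), and its arrays overlapped. That of Ccl17 did not survive leaving out CD103+ cDC replicate 1 (adjusted p = 0.091), CD14lo cDC replicate 2 (0.074) or CD14lo cDC replicate 3 (0.085), nor testing with no filter (0.052) or no intensity trend (0.054), and that of Ccl5 without CD14lo cDC replicate 2 (0.074). Ccl2, Ccl3 and Ccl22 kept their calls when any 1 array was left out. Lung epithelial genes were brighter in CD103+ cDC, with a summed signal of 9 genes between 7101 and 11907 against 2449 and 5035 in CD14lo cDC, and their part in these differences was not tested.

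To ask which ligands parted from each other, signals plus the pseudocount were subtracted within each array on the log2 scale. For genes far above the pseudocount this removes any scaling of the whole array. It does so only in part for dim signals, such as those of Ccl7, Ccl8 and Ccl12 in conventional DC. The 5 pairs were picked after the values had been seen. With 3 arrays against 3 the exact permutation test cannot go below p = 0.1, or 0.14 after Benjamini-Hochberg over the 10 tests made, so none could be called. Ccl8 relative to Ccl12 fell by 1.94 from CD14hi to Ly6Chi moDC, or 3.84-fold, with no overlap between arrays (exact p = 0.1). From CD14lo cDC to CD14hi moDC the fall was 1.37, or 2.58-fold, also with no overlap (exact p = 0.1). This second separation depends on the pseudocount. As plain signals, Ccl8 stood lower beside Ccl12 on CD14lo cDC replicate 1 (67.6 and 260.5) than on CD14hi moDC replicate 2 (4256 and 11731). Ccl22 relative to Ccl17 fell by 1.63 from CD14hi to Ly6Chi moDC, 3.09-fold, again without overlap (exact p = 0.1). It changed by 0.07 from CD14lo cDC to CD14hi moDC with overlapping arrays (exact p = 0.8). Ccl4 relative to Ccl3 changed by -0.06 from CD14hi to Ly6Chi moDC with overlap (exact p = 0.5), and fell by 0.43 from CD14lo cDC to CD14hi moDC without overlap (exact p = 0.1). Ccl2 relative to Ccl7 changed by 0.32 from CD14hi to Ly6Chi moDC with overlap (exact p = 0.3). It fell by 1.04 from CD14lo cDC to CD14hi moDC without overlap (exact p = 0.1). Ccl5 relative to Ccl3 fell by 1.76 from CD14lo cDC to CD14hi moDC and by 0.99 from CD14hi to Ly6Chi moDC. Neither step had overlap (exact p = 0.1 each).

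**Figure D4:**
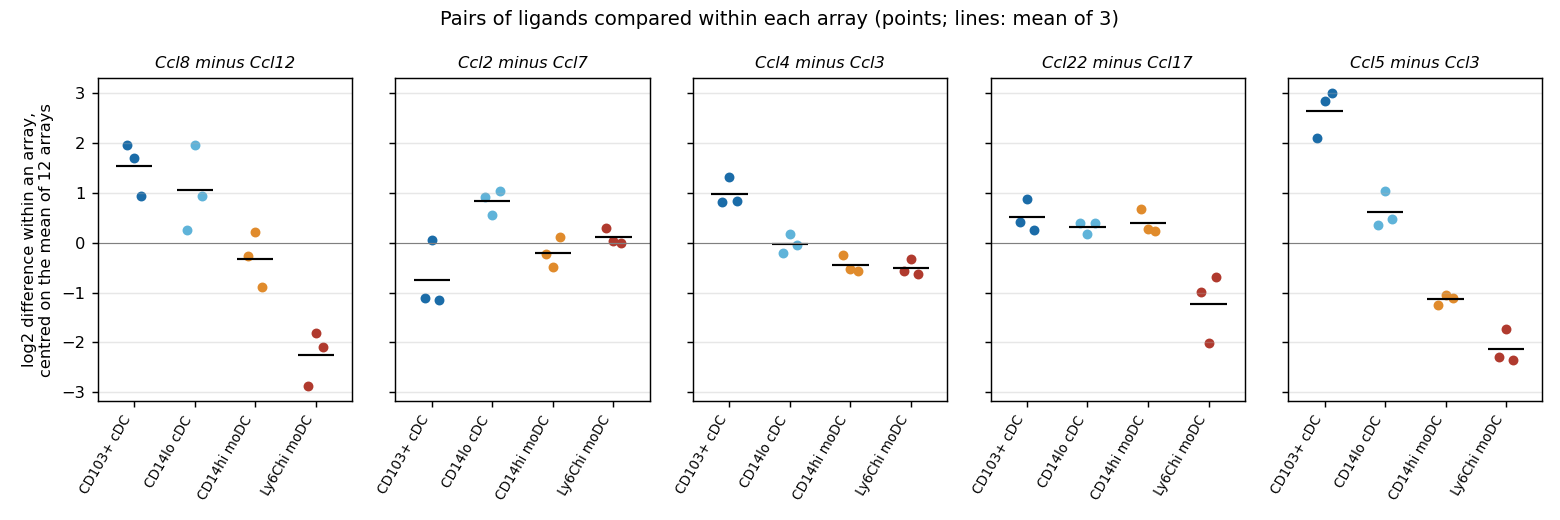
Points show the log2 difference of signal plus pseudocount between the ligands of a pair within each array, centred on the mean of 12 arrays. Lines show the mean of 3 arrays in each population. For Ccl8 minus Ccl12, Ccl22 minus Ccl17 and Ccl5 minus Ccl3 the 3 Ly6Chi moDC arrays lie below all other arrays.

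For each ligand the genes of nearest pattern were sought among all genes tested, by the root mean square difference of log2 signals, each gene centred on its mean over the 12 arrays. Ccl12 and Ccl2 were 0.47 apart and Ccl12 and Ccl7 were 0.58 apart. Ccl12 and Ccl2 were the nearest genes to Ccl7, with Olfml3 next at 0.67, and Ms4a7 (0.42) and C3ar1 (0.43) were nearest to Ccl2. The nearest to Ccl8 were Mmp13 (0.61), Timp2 (0.70) and Pmp22 (0.72), of which Mmp13, a collagenase gene, had mean signals of 1087 in CD14hi moDC and 153 in Ly6Chi moDC. Ecm1 (0.37), Fam20c (0.41) and Fpr2 (0.43) were nearest to Ccl24, and all 3 had their highest mean in Ly6Chi moDC. Nearest to Ccl22 were Ccr7 (0.32), the retinoic acid synthesis gene Aldh1a2 (0.35) and Adam23 (0.37), while Ccl17 had Actn1 (0.29), Palld (0.33) and Ndnf (0.34). Lpl (0.35), Blvrb (0.42) and Creb5 (0.44) were nearest to Ccl3, Hebp1 (0.27), Gpx3 (0.29) and Camk1 (0.32) to Ccl4, and Sbf2 (0.26), Mt2 (0.27) and Cd226 (0.30) to Ccl5. These distances describe 12 arrays of 4 populations and carry no test.

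Of 11 other CC ligand genes listed, 8 were on the array under their own symbol and 5 passed the filter. Ccl6 and Ccl9, which lie near Ccl3 and encode monocyte and macrophage attractants, were graded like Ccl3 among the first 3 populations. Ccl6 had 1854 ± 389, 3873 ± 738, 7482 ± 559 and 8264 ± 1107 from CD103+ cDC to Ly6Chi moDC (SD, n = 3 each), and Ccl9 had 1931 ± 666, 7305 ± 317, 12336 ± 2152 and 10740.4 ± 578. Both were higher in CD14lo than in CD103+ cDC, by 2.06-fold and 3.84-fold, and in CD14hi moDC than in CD14lo cDC, by 1.94-fold and 1.67-fold, all called. Ccl25, a gene of a gut and thymus chemokine, was dim, with a highest mean of 162 ± 56.7 in Ly6Chi moDC. None of the 5 tested was called between Ly6Chi and CD14hi moDC. Ccl1, Ccl11 and Ccl20 did not pass the filter, with signals of at most 67.5 on any array.

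Of the CC receptor genes, 9 were looked up on the array and 5 passed the filter and were tested. Ccr2, the receptor of the monocyte attractants, had 3320.1 ± 663, 5260.5 ± 519, 5384 ± 496 and 8898 ± 455 (SD, n = 3 each) from CD103+ cDC to Ly6Chi moDC. It was 1.65-fold higher in Ly6Chi than in CD14hi moDC (log2 difference 0.72 ± 0.14, adjusted p = 0.0011). Ccr1, a receptor of Ccl3 and Ccl5, had 59.5 ± 9.14, 602 ± 50.8, 652 ± 44.7 and 2225 ± 47.9 and was 3.25-fold higher in the same comparison (1.70 ± 0.16, adjusted p = 2.2e-07). Neither receptor was called between CD14hi moDC and CD14lo cDC, where Ccl2, Ccl7 and Ccl12 differed by 24.3-fold to 49.9-fold. Ccr6 and Ccr9 were dim, with highest means of 131 ± 36.3 in CD14lo cDC and 220.1 ± 58.8 in CD103+ cDC. Ccr3 and Ccr4, the receptors of Ccl24 and of Ccl17 and Ccl22, did not pass the filter and were at most 32.1 on any array. They are borne chiefly by eosinophils and T cells.

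**Figure D5:**
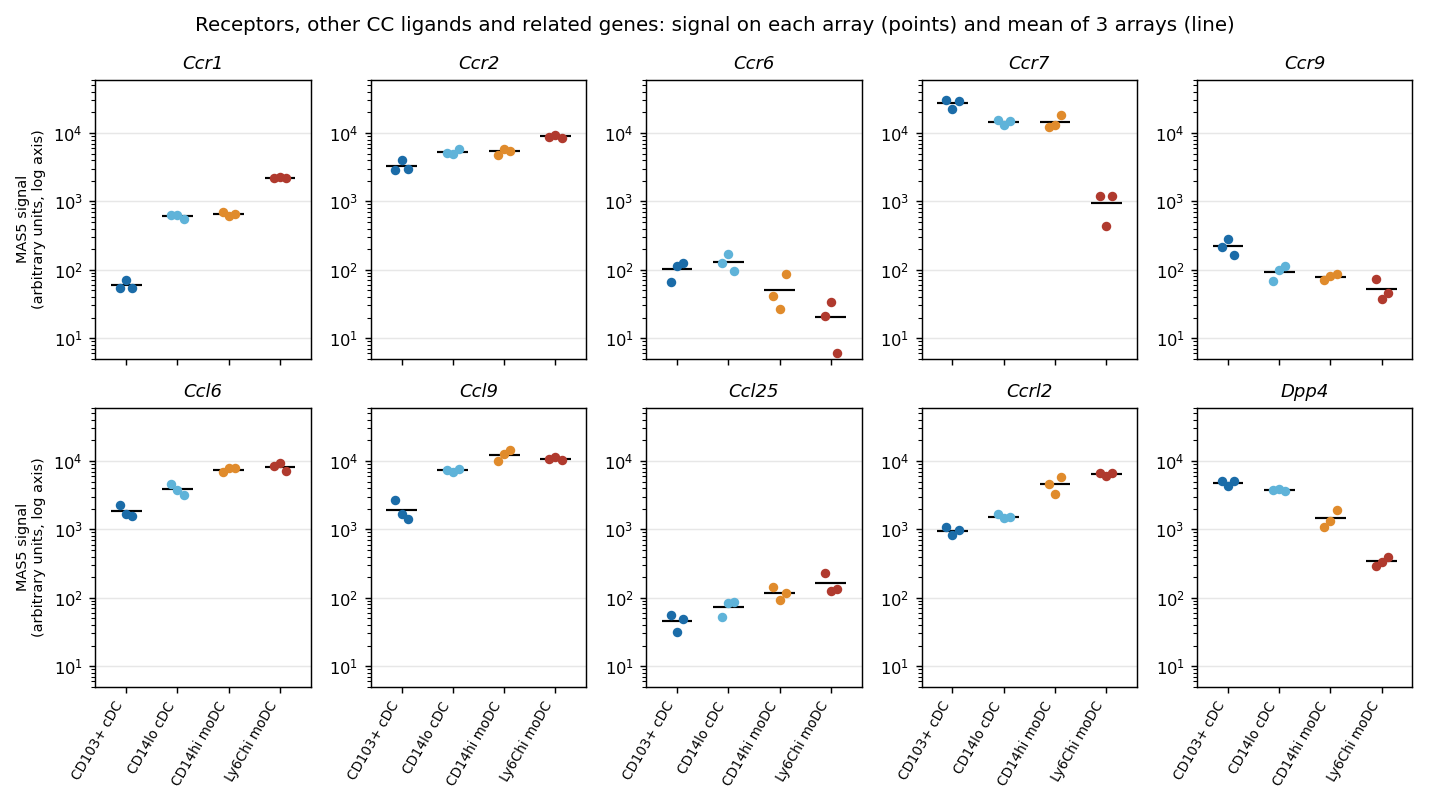
MAS5 signal (arbitrary units, log axis) of 5 CC receptor genes, 3 other CC ligand genes, Ccrl2 and Dpp4 on each of 12 arrays, with a line for the mean of 3 arrays in each population. Ccr7 is low in Ly6Chi moDC, with means of 936 there and at least 14474 elsewhere, whereas Ccr1 and Ccr2 are highest there.

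Genes listed as atypical receptors or as trimming ligands were mixed. Ccrl2, an atypical receptor, had 958 ± 137 in CD103+ cells, 1535 ± 108 in CD14lo cells, 4610.2 ± 1308 in CD14hi cells and 6459.6 ± 402 in Ly6Chi cells (SD, n = 3 each). It was 2.86-fold higher in CD14hi moDC than in CD14lo cDC (log2 difference 1.52 ± 0.17, adjusted p = 5.2e-06). Mmp12, a macrophage elastase that can trim monocyte attractants, had 9.30 ± 9.63 in CD103+ cells, 926 ± 503 in CD14lo cells, 5722 ± 173 in CD14hi cells and 1196 ± 619.7 in Ly6Chi cells, and was 5.01-fold lower in Ly6Chi than in CD14hi moDC (-2.32 ± 0.31, adjusted p = 2.1e-05). Dpp4, the peptidase CD26, which removes N-terminal residues of several chemokines including the product of Ccl22, was 3.75-fold lower in Ly6Chi than in CD14hi moDC (-1.91 ± 0.18, adjusted p = 3.0e-07). Ackr4, a scavenger of CCR7 ligands, was read only from the brightest of its 3 probe sets. It was called in none of the 7 comparisons, with means between 8721 and 10382. Ackr1 was dim, with a highest mean of 144 ± 72.7 in CD14lo cDC (SD, n = 3), and was called higher there than in CD103+ cDC and Ly6Chi moDC.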

How the data were processed

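Gene expression of 4 sorted lung DC populations was measured on 12 Affymetrix mouse arrays, 3 per population, from 50 ng of amplified RNA each. The authors deposited linear MAS5 intensities, per the submitters' processing notes, and the 2% trimmed mean was 500.003 on every array in the deposited table. For the MAS5 version and the detection calls, nothing is given in the sources used here. All arrays were used as scaled. Of 45101 probe sets, 64 controls were set aside, and symbols came from the platform annotation. Where several probe sets of a gene passed the filter, the one with the highest mean was taken. Population means of log2 signals were fitted to all arrays with limma 3.58.1 (eBayes with an intensity trend, 8 residual degrees of freedom) in R 4.3.3, in 7 comparisons, and all adjusted p values come from it. On simulated data with independent normal noise, where 200 of 10929 genes differed, the model called 65% of 2-fold and 98% of 4-fold changes. Of 173 genes called there between CD14hi moDC and CD14lo cDC, 10 were false. No effect shared between arrays was simulated, so the simulation does not cover such effects. Permutation tests used scipy 1.17.1 and promoter alignments Biopython 1.88. The ligands and lists were chosen with earlier results of these data known. The 10 ligands, the tested members of the other ligand, receptor and trimming lists, and the 3 nearest genes of each ligand could be named.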

Additional observations from a re-analysis of the deposited data

How the results depend on the processing

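The alternatives were quantile normalization, median centring, pseudocounts of 10 and 100, no filter or one at the 75th percentile, averaged probe sets, no intensity trend, only the arrays compared, a replicate block, and each array left out. The count of ligands called changed by over 1.5 times in 1 comparison, CD14lo against CD103+ cDC, where it was 7 and became 4 with quantile normalization, between 4 and 7 without 1 array, and 2 with the CD103+ cDC array of the lowest Gapdh ratio alone, a setting chosen after seeing the data in which that lone array was assumed to vary like the other groups. Without 1 array the other counts were 10 over all populations, 10 for conventional against monocyte-derived cells, 7 for CD14hi moDC and 10 for Ly6Chi moDC against CD103+ cDC, 8 and 10 for the same against CD14lo cDC, and between 6 and 7 for Ly6Chi against CD14hi moDC. With the replicate block the counts were 10, 10, 7, 10, 8, 10 and 7 in that order, and 7 for CD14lo against CD103+ cDC, so the block changed no count. Correlations of deviations ran from -0.11 to 0.24 over 18 same-numbered pairs of arrays, with 8 over 0.1, against 4 of 36 differently numbered pairs, and 8 of 12 arrays correlated best on average with their own number. Same-numbered pairs were thus more often over 0.1, though not all of them were. The labels do not say what the numbers share, and whether they mark shared mice or sort days was not tested. The numbers were therefore used only as a block in an alternative fit.

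Of single values, 5 changed sign, none of which had been called. Between CD14lo and CD103+ cDC, Ccl7 ran from -0.45 to 0.16 without 1 array, the latter without CD103+ cDC replicate 1, and was 0.12 with the lone array. Ccl8 ran from -0.14, without CD103+ cDC replicate 3, to 0.52 and was -0.19 with the lone array. Ccl17 in CD14hi moDC against CD103+ cDC was 0.086 with the lone array. Calls were gained for Ccl5 in CD14hi moDC against CD103+ cDC with quantile normalization (adjusted p = 0.046) and, with only the arrays compared, for Ccl22 in that comparison (0.040) and Ccl12 in Ly6Chi against CD14hi moDC (0.0496). Calls lost between CD14lo and CD103+ cDC were those of Ccl12 (0.064) and Ccl24 (0.082) with only the arrays compared, of Ccl24 with a pseudocount of 100 (0.069), of Ccl24 (0.069) and Ccl17 (0.052) with no filter, and of Ccl17 with no intensity trend (0.054), besides those with quantile normalization and without single arrays given above. Detection calls were not used here for the dim signals of Ccl7, Ccl8, Ccl12 and Ccl24 in conventional DC, and the size of folds against them depends on the pseudocount: with 10 and 100, Ccl8 in CD14hi moDC against CD103+ cDC was 37.9-fold and 16.4-fold.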
